A study of Homo sapiens with 6 samples.

Results

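The 10 genes described here are cytokines, receptors and signalling proteins of the interleukin-6 (IL-6) family in T24 and UMUC3, established human bladder cancer cell lines. They were taken by symbol from a table of raw transcript counts and summed by gene, and are 10 of its 30717 named genes: the ligands IL6, IL11 and LIF, the receptors IL6R, IL6ST, LIFR and OSMR, the kinase JAK1, the transcription factor STAT3 and the inhibitor SOCS3. Each line gave 1 control library, titled si-circPTK2-CON, and 2 knockdown libraries, titled si-circPTK2-1 and si-circPTK2-2, all from total RNA. circPTK2 is a circular RNA spliced from exons of PTK2, the gene of focal adhesion kinase, and the labels separate the libraries of a line by its knockdown and, within the knockdown, by the number 1 or 2 in the title. The sources used here do not give the reagent dose, the time after its addition or whether the libraries came from separate cultures, so the spread between the paired knockdown libraries may be technical, and it cannot be told apart from a difference between the reagents numbered 1 and 2. In T24 the number in the column name is the opposite of the number in the title, and the title's number is used below.

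Cytokines of this family signal through a shared receptor chain, gp130, the product of IL6ST. IL-6 and IL-11 first bind a receptor chain of their own and then draw in gp130, whereas LIF uses gp130 with LIFR, and oncostatin M uses gp130 with OSMR or LIFR. The receptor complex activates Janus kinases such as JAK1, which phosphorylate STAT3, and STAT3 induces SOCS3, which in turn blocks the receptor complex. In bladder cancer, as in other carcinomas, the pathway is known for growth and inflammatory signals that tumour cells can send to themselves.

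The members were proposed with values of these same comparisons in view, so their levels and fold changes are given as a description with no test. Levels are counts as a share of the library (CPM), scaled by the trimmed mean of M-values (TMM), and levels of different genes are compared in TPM, which also divides by transcript length. Fitted log2 fold changes carry a standard error (SE) from the edgeR fit, which shares information on spread across all genes. It is thus not the spread of a gene's own pair alone. Since each line has 1 control, the residual spread within the lines comes from the paired knockdown libraries of both. In the fits of both lines together and of line against line, it also includes any difference of the knockdown effect between the lines.

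Stretches of the IL6 and IL11 promoters are shown because these ligands moved opposite ways in T24, and an exon of IL6R because it separates the membrane receptor from a short form. The promoter stretches are from RefSeq (GRCh38.p14), 5′ to 3′ on the gene's strand, from 133 to 54 bases before the transcription start, at chr7:22727067-22727146 on the plus strand for IL6 and chr19:55370517-55370596 on the minus strand for IL11. The transcription start is that of the RefSeq entry, and not every transcript counted here starts there. ENST00000404625, which held all IL6 counts of the T24 control, starts at 22725884. The IL11 transcript with the most counts, ENST00000264563, starts at 55370373. Capitals mark a match to the NF-kB motif, of 10 letters, in IL6 and to the AP-1 motif TGANTCA in IL11.
IL6 promoter: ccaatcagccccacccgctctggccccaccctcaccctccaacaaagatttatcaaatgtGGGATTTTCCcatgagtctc
IL11 promoter: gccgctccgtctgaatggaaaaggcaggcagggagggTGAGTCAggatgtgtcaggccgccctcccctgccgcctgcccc

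Both strands of the 250 bases before the start were searched for these motifs, which do not overlap in the stretches shown, and for the STAT motif TTCNNNGAA. Of 35116 RefSeq promoters, 1.4% held the NF-kB motif, 6.57% the AP-1 motif and 6.57% the STAT motif. A promoter entry was found for 9 of the 10 members. Among these, IL6 alone had an NF-kB match, IL11 alone an AP-1 match and LIFR alone a STAT match. A match is a string of letters and was not tested as a binding site.

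The exon of IL6R is exon 9 of transcript ENST00000368485 (GENCODE 29, GRCh38, chr1:154454488-154454581, plus strand), which is coding over its whole length of 94 bases. It is shown in capitals with 24 bases of the neighbouring exons on either side, followed by the junction of transcript ENST00000344086, which lacks it.
IL6R with exon 9: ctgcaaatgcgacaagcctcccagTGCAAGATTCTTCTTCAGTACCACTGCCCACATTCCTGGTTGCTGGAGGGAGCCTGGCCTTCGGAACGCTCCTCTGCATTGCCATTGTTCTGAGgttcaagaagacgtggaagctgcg
IL6R without exon 9: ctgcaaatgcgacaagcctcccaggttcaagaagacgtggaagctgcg

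Libraries held 65111683 to 72362436 counts, of which 14.86 to 16.1% lay on transcripts with no gene name. The filter on low counts kept 20721 genes, all 10 members among them. PTK2, the host gene, does not check the labels, because its linear transcripts are not the circular RNA: it stood at 45.9 CPM in control T24 cells and 67.2 and 63.0 with circPTK2 knocked down, and at 123.8, 161.2 and 393.3 in UMUC3. Epithelial markers were unequal between the lines. The summed epithelial and urothelial marker level was 3996 to 4473 TPM in T24 and 212.4 to 230.8 in UMUC3. In UMUC3 nearly all of it was KRT8 (93.9 to 106.0 TPM) and KRT18 (107.0 to 119.0). KRT7 was at 2.41 to 10.3 TPM there, KRT19, GATA3 and KRT13 were below 1 TPM, and EPCAM was at 0. KRT5, CDH1, UPK1B and UPK2 were below 1 TPM in every library. PTPRC, the pan-leukocyte marker, was at or below 0.0256 TPM throughout. Mitochondrial genes took 2.68% of named counts in the T24 control against 3.36 and 3.5% after knockdown, against 4.26 to 4.62% in UMUC3.

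By CPM, 8 members were higher in both T24 knockdown libraries than in the control, and IL11 and LIF were lower in both. In UMUC3, IL11, IL6R, STAT3 and SOCS3 were higher in both, IL6ST, LIFR and JAK1 were lower in both, and LIF and OSMR lay on both sides. IL6 had no count in UMUC3. Over all 20721 genes, both knockdown libraries lay above the control for 34.7% in T24 and 35.6% in UMUC3, and below it for 37.3% and 37.1%. These comparisons chose the members, so nothing is read from the counts. In a bulk library, fewer cells expressing a gene and less of its RNA per cell cannot be told apart.

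**Figure D1:**
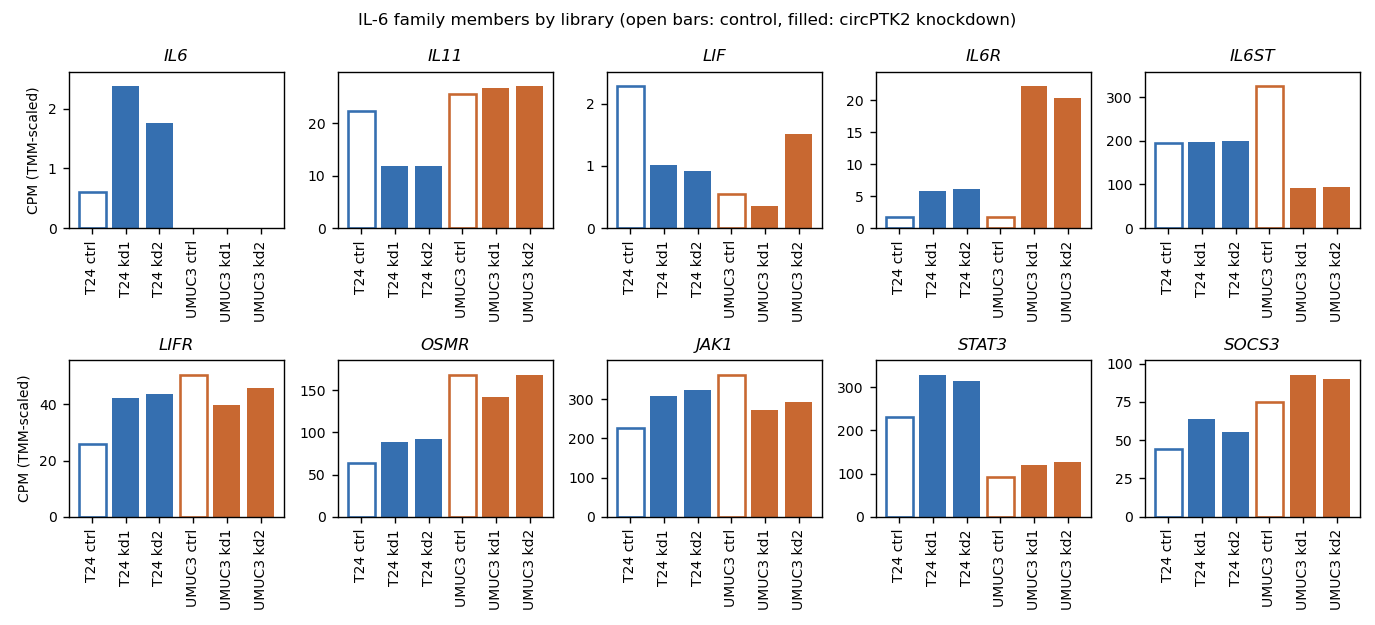
CPM of each member (vertical axis, TMM-scaled, each panel with its own scale from 0) in the 6 libraries, open bars for the control and filled bars for the 2 knockdown libraries of T24 (blue) and UMUC3 (orange). IL6R is higher in both knockdown libraries of both lines, IL6ST is at 90.84 and 94.43 CPM in the UMUC3 knockdown libraries, and IL6 is at 0 in UMUC3.

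Of the ligands, IL6 and LIF were near the bottom of the range of levels and IL11 in its middle. IL6 (chromosome 7, 22725884 to 22732002), the cytokine that gives the family its name, stood at 0.606 CPM in control T24 cells and at 2.39 and 1.77 with circPTK2 knocked down, from 36, 142 and 105 counts. Both knockdown libraries lay above the control, 3.94 and 2.92 times its level, and the fitted log2 fold change was 1.77 ± 0.62 (SE). All 3 UMUC3 libraries had 0 counts, which allows a mean of up to 0.0522 CPM at 3 counts per library, so the T24 mean of 1.59 CPM was at least 30.4-fold higher. This limit covers counting error only.

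The transcripts behind the IL6 counts differed between the T24 libraries. The 36 counts of the control all lay on ENST00000404625, while the knockdown counts lay on the retained-intron transcript ENST00000485300 (76 and 57 counts) and on ENST00000258743 (60 and 43), with none on ENST00000404625. ENST00000404625 and ENST00000258743 have the same coding sequence of 212 codons. STEAP1B overlaps IL6 on the opposite strand and had 12, 24 and 0 counts in T24 and 89, 715 and 721 in UMUC3, and the sources used here do not say whether counting used strand.

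IL11 (chromosome 19, 55364389 to 55370463), a gp130 cytokine with roles in bone and fibrosis, stood at 22.3 CPM in control T24 cells and 11.9 and 11.8 with circPTK2 knocked down. Both knockdown libraries held about the same level, 0.532 and 0.527 times the control, with a fitted log2 fold change of -0.92 ± 0.16. In UMUC3 the 3 libraries lay close together at 25.5, 26.8 and 27.2 CPM (0.08 ± 0.17). The difference of the knockdown effect between the lines, T24 minus UMUC3, was -1.0 ± 0.24 on the log2 scale.

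LIF (chromosome 22, 30240447 to 30246851), a cytokine known for holding stem cells undifferentiated, was near the limit of what these counts resolve. It stood at 2.29 CPM in control T24 cells and 1.01 and 0.925 with circPTK2 knocked down, and at 0.555, 0.357 and 1.51 CPM in UMUC3. The T24 knockdown libraries were both below the control, and the UMUC3 libraries lay on both sides of it, with fitted log2 fold changes of -1.24 ± 0.92 and 0.75 ± 1.00. The antisense gene AC004264.1 overlaps LIF and had 193 counts in the T24 control against 217 and 257 after knockdown. In UMUC3 it had 108 in the control and 101 and 53 after knockdown, where LIF had 31, 20 and 92. Without strand these counts cannot be told apart from reads of LIF.

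Among the receptors, IL6R (chromosome 1, 154405193 to 154469450), the chain that binds IL-6, showed the widest range. It stood at 1.78 CPM in control T24 cells and 5.73 and 6.06 with circPTK2 knocked down, and at 1.72 CPM in control UMUC3 cells and 22.3 and 20.3 with circPTK2 knocked down. The controls of both lines were alike and all 4 knockdown libraries lay above them, 3.21 and 3.39 times the control in T24 and 13 and 11.8 times in UMUC3. The fitted log2 fold changes were 1.72 ± 0.24 and 3.63 ± 0.27, and their difference was -1.91 ± 0.32. Among all genes tested, both knockdown libraries were at least 3 times the control for 2.26% in T24 and at least 5 times for 0.98% in UMUC3.

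Most IL6R counts lay on ENST00000368485, the transcript with exon 9 that encodes the membrane receptor of 468 codons. Its share of IL6R counts was 100%, 95% and 88.3% in the T24 control and knockdown libraries (Wilson 95% intervals 96.5 to 100%, 92.2 to 96.9% and 84.6 to 91.3%). In UMUC3 it was 96.9%, 93.2% and 83.3% (91.2 to 98.9%, 91.7 to 94.5% and 81.1 to 85.2%). The form without exon 9, with 365 codons and the sequence of the soluble receptor made by splicing, had 40 counts in T24 knockdown 2 and 51 in UMUC3 knockdown 1, and 0 in the other 4 libraries. Another short coding transcript, ENST00000622330, had 183 counts in UMUC3 knockdown 2 and 0 elsewhere. These 2 short forms were thus each found in 1 library of a pair and not in the other, and the intervals cover counting error only.

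CD68, a macrophage marker that other cells also express, moved with IL6R in UMUC3, from 29.4 TPM in the control to 56.1 and 54.7. The other myeloid markers detected there went the opposite way, CD14 from 0.904 to 0.356 and 0.205 TPM and ITGAM from 2.15 to 1.08 and 0.567. The summed level of the 7 immune markers measured of 11 went from 32.4 to 57.6 and 55.4 TPM in UMUC3, nearly all of it CD68, and was 9.54 to 10.8 in T24, while PTPRC, CD4 and CD8A were at 0 in all 3 UMUC3 libraries. The part of other cell types in the IL6R values was not tested.

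IL6ST (chromosome 5, 55935095 to 55994993), the gp130 gene, stood at 195.6 CPM in control T24 cells and 198.3 and 199.0 with circPTK2 knocked down, and at 325.9 CPM in control UMUC3 cells and 90.8 and 94.4 with circPTK2 knocked down. The T24 libraries differed little from each other (0.02 ± 0.08 on the log2 scale), and the UMUC3 control was 3.52 times the mean of its knockdown libraries (-1.82 ± 0.08). Among all genes tested, the UMUC3 control was at least 3 times both knockdown libraries for 2.99%. The difference of the knockdown effect between the lines was 1.84 ± 0.12.

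The lower IL6ST level in UMUC3 came with a change in which transcript held the counts. ENST00000336909 had 8837 counts in the UMUC3 control against 347 and 225 after knockdown, and its share of IL6ST counts was 48.6%, 6.81% and 3.91% (Wilson 95% intervals 47.8 to 49.3%, 6.15 to 7.54% and 3.44 to 4.45%). ENST00000381298, which has the same coding sequence of 918 codons, went from 9100 counts to 4731 and 4313. A shorter coding transcript, ENST00000381294, held 930 counts (16.2%) after knockdown 2, but 0 after knockdown 1 and 0 without knockdown. By TPM, IL6ST stood at 73.4 for control UMUC3 cells, 19.9 for knockdown 1 and 33.4 for knockdown 2. The paired libraries thus lay further apart by TPM than by CPM, with both still below their control. Without ENST00000336909 the IL6ST level was 167.6 CPM in control UMUC3 cells and 84.7 and 90.7 with circPTK2 knocked down, 0.523 times the control (log2 -0.93), which is a smaller fall than with all transcripts counted. In T24, where the share of ENST00000336909 was 72.0%, 65.6% and 66.7%, the level without it was 54.7, 68.2 and 66.2 CPM.

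**Figure D2:**
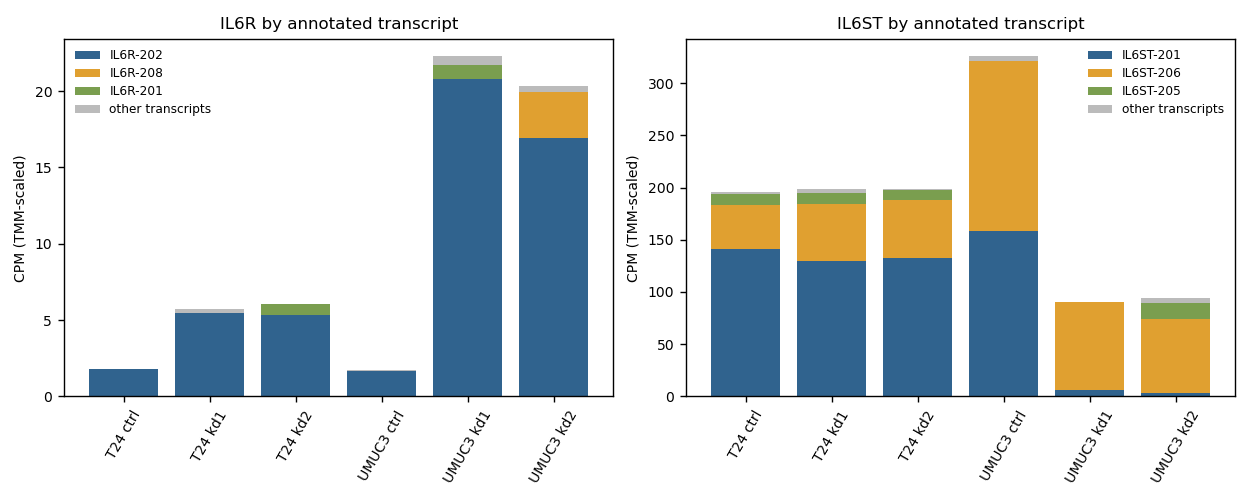
CPM of IL6R (left) and IL6ST (right) in the 6 libraries, stacked by annotated transcript. IL6R-202 is ENST00000368485 and IL6R-201 the form without exon 9, IL6ST-201 is ENST00000336909 and IL6ST-206 is ENST00000381298. Most of the IL6R counts lie on IL6R-202, and in the UMUC3 knockdown libraries IL6ST-201 is at 6.19 and 3.7 CPM against 158.2 in the control.

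Set against gp130 by length-scaled level, IL6R stood at 1.11% of the IL6ST TPM in control T24 cells and 5.24% and 4.3% with circPTK2 knocked down. In UMUC3 it stood at 0.968% in the control and 43.6% and 32.9% in the knockdown libraries. The controls were alike and every knockdown library lay above them, and IL6ST remained the more abundant RNA in each library. The lower share of UMUC3 knockdown 2 went with its higher IL6ST TPM, at 33.4 against 19.9 for knockdown 1.

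LIFR (chromosome 5, 38474963 to 38608354), the receptor chain that binds LIF, stood at 25.9 CPM in control T24 cells and 42.3 and 43.6 with circPTK2 knocked down (log2 0.73 ± 0.16). In UMUC3 it stood at 50.6, 40.0 and 46.0 CPM (-0.24 ± 0.16). By CPM both T24 knockdown libraries were thus above their control and both UMUC3 libraries below theirs, and the difference of the effects was 0.97 ± 0.22. By TPM the UMUC3 knockdown libraries stood at 8.70 and 12.6 against 11.6, on both sides of the control.

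OSMR (chromosome 5, 38845858 to 38945596), the oncostatin M receptor chain, stood at 63.5 CPM in control T24 cells and 88.5 and 92.4 with circPTK2 knocked down (log2 0.51 ± 0.15). The UMUC3 libraries stood at 167.4, 141.7 and 168.3 CPM, on both sides of the control (-0.11 ± 0.14). RICTOR, which overlaps OSMR on the opposite strand, had 4097 counts in the T24 control against 6028 and 6215 after knockdown, and 3343, 2131 and 3338 in UMUC3, and like OSMR it was higher in both T24 knockdown libraries and lowest in UMUC3 knockdown 1. Its part in the OSMR values was not tested.

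Downstream of the receptors, JAK1 (chromosome 1, 64833229 to 64966504), a kinase bound to gp130, stood at 227.4 CPM in control T24 cells and 309.3 and 323.6 with circPTK2 knocked down, and at 363.0, 272.0 and 294.2 CPM in UMUC3. It was higher in both T24 knockdown libraries (0.48 ± 0.09) and lower in both UMUC3 ones (-0.36 ± 0.09), and the difference of the effects was 0.84 ± 0.13. Its counts kept to the same transcripts, with at most 0.3% of them shifting between transcripts within a line.

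STAT3 (chromosome 17, 42313324 to 42388568), the transcription factor that the receptor complex activates, stood at 231.7 CPM in control T24 cells and 329.3 and 314.5 with circPTK2 knocked down, and at 91.6, 119.0 and 126.8 CPM in UMUC3. It was higher in all 4 knockdown libraries, with log2 fold changes of 0.48 ± 0.09 in T24 and 0.43 ± 0.09 in UMUC3. By TPM the UMUC3 control stood at 58.1 and its knockdown libraries at 58.6 and 69.9, so knockdown 1 differed little from the control by that measure. A retained-intron transcript, ENST00000462286, held 2291 counts in T24 knockdown 2 and 1 to 11 in the others, and without it that library stood at 275.9 CPM, still above the control. RNA levels say nothing of STAT3 phosphorylation, which was not measured here.

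SOCS3 (chromosome 17, 78356778 to 78360077), the feedback inhibitor, stood at 44.0 CPM in control T24 cells and 64.0 and 55.6 with circPTK2 knocked down, and at 75.1, 92.9 and 89.8 CPM in UMUC3. All 4 knockdown libraries were above their control, with log2 fold changes of 0.44 ± 0.14 and 0.28 ± 0.14. STAT3, SOCS3 and IL6R were the members higher in every knockdown library of both lines.

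**Figure D3:**
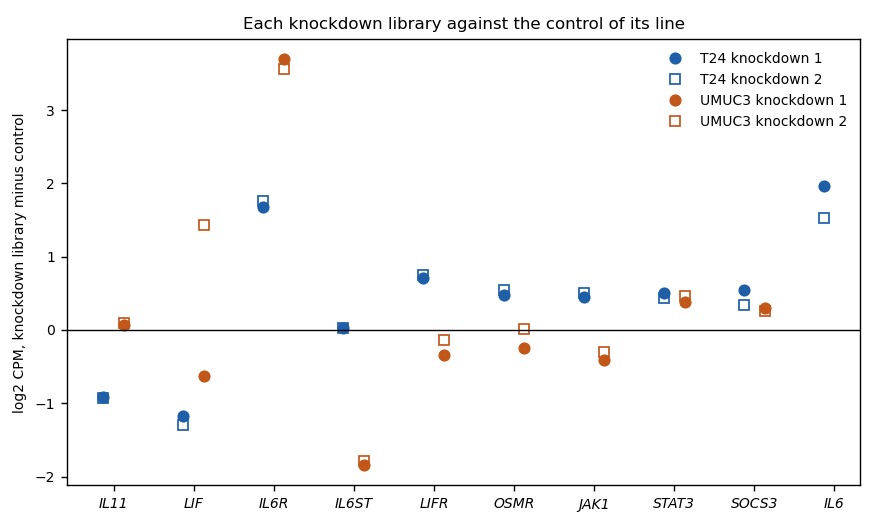
Log2 CPM of each knockdown library minus that of the control of its line (vertical axis), with circles for knockdown 1 and open squares for knockdown 2, T24 in blue and UMUC3 in orange, and no UMUC3 points for IL6. The paired knockdown libraries lie close together for most members, and LIF in UMUC3 lies on both sides of 0.

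In the edgeR quasi-likelihood fits over all genes, 0 of 10 members had an adjusted p under 0.05 in T24, where 0.00965% of all genes passed, and 7 had an unadjusted p under 0.05, where 12.2% did. In UMUC3 1 member, IL6ST, passed, beside 0.0627% of all genes, 0.0145% lower, and 4 had an unadjusted p under 0.05, beside 16.9%. None passed in both lines together (0.00965% of all genes), where 3 had an unadjusted p under 0.05 beside 9.55% of all genes, or in the difference between the lines (0.0241% of all genes), where 6 did beside 14.3%. DESeq2 called 3, 2, 2 and 5 members in these comparisons, beside 4.65%, 8.2%, 4.76% and 5.41% of all genes, and limma voom called no member, beside 0, 0, 3 and 0 genes in all (0.0145% in both lines). IL6ST did not pass in UMUC3 when any 1 knockdown library of either line was left out, and edgeR then called 0 genes there. Without the robust fit IL6ST did not pass there either (edgeR adjusted p = 0.0593). The newer quasi-likelihood method of the same package called IL6R and IL6ST in UMUC3, beside 0.647% of all genes. Since the members were chosen on these contrasts, the counts are a description.

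The lines were set against each other over all 6 libraries. STAT3 was higher in T24 without overlap, at 231.7 to 329.3 CPM against 91.6 to 126.8 (log2 1.37 ± 0.09), and IL6 was found in T24 alone. IL11, OSMR and SOCS3 were lower in T24 without overlap, at 11.8 to 22.3 against 25.5 to 27.2 CPM, 63.5 to 92.4 against 141.7 to 168.3, and 44.0 to 64.0 against 75.1 to 92.9. The fitted log2 values of these 3 were -0.86 ± 0.25, -0.98 ± 0.17 and -0.67 ± 0.12. The other 5 members overlapped between the lines. The libraries of the lines did not overlap for 5 of 10 members and for 52.3% of all genes. By edgeR, 4 members had an adjusted p under 0.05 in this comparison (IL6, STAT3, OSMR and SOCS3), beside 35.3% of all genes. The summed epithelial marker level also differed between the lines, as given above, and its part in these values was not tested.

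For IL6R, IL6ST and IL11 the comparison of the lines depended on which libraries were taken. In the controls alone IL6R was 1.04 times as high in T24 as in UMUC3, while over 3 libraries its mean was 3.27 times as high in UMUC3. The IL6ST control of UMUC3 was 1.67 times that of T24, and both UMUC3 knockdown libraries were below all 3 of T24. The IL11 controls differed by a factor of 1.15.

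By length-scaled level, STAT3 (median 161.0 TPM, range 115.0 to 168.0) and JAK1 (130.0, 97.9 to 136.0) led in T24 and overlapped, followed by IL6ST (55.1, 54.8 to 55.5). SOCS3 (41.1, 33.0 to 47.2) and OSMR (39.5, 26.9 to 42.3) overlapped, as did IL11 (15.0, 13.7 to 24.9) and LIFR (10.3, 6.97 to 14.2). IL6 (3.49, 0.814 to 4.67), IL6R (2.37, 0.619 to 2.87) and LIF (1.35, 1.34 to 2.37) were lowest, each overlapping the next. STAT3, JAK1 and gp130, which the family shares, thus led the T24 order, and the ligands IL6 and LIF and the receptor IL6R closed it.

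In UMUC3, JAK1 was highest (119.0, 106.0 to 143.0) and did not overlap the next. SOCS3 (63.9, 52.4 to 64.6), OSMR (61.3, 54.1 to 66.0), STAT3 (58.6, 58.1 to 69.9), IL6ST (33.4, 19.9 to 73.4) and IL11 (30.6, 28.4 to 30.9) each overlapped the next. LIFR (11.6, 8.7 to 12.6), IL6R (8.68, 0.71 to 11) and LIF (0.708, 0.651 to 2.14) followed, also overlapping in turn, and IL6 was at 0. The wide ranges of IL6ST and IL6R come from the control standing apart from the knockdown libraries.

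**Figure D4:**
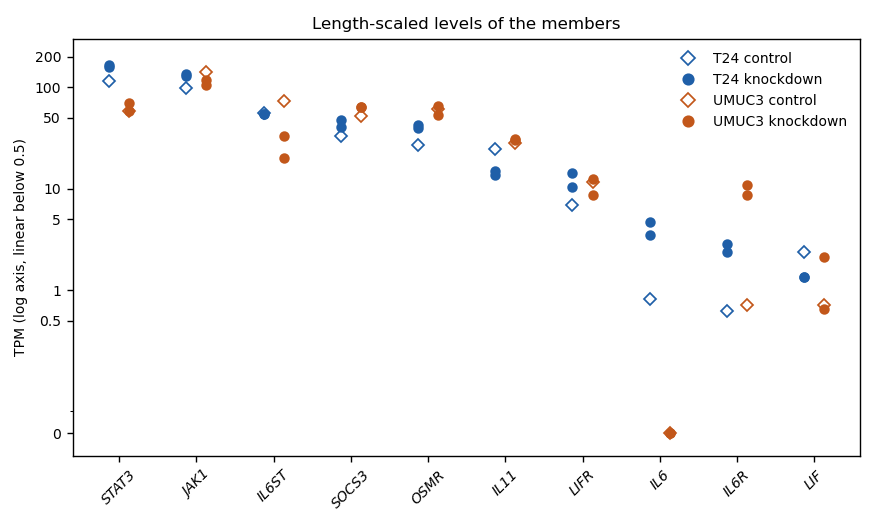
TPM of each member (vertical axis, logarithmic above 0.5 and linear below) in the 6 libraries, ordered by the T24 median, with open diamonds for controls and filled circles for knockdown libraries, T24 in blue and UMUC3 in orange. STAT3 and JAK1 lead in T24, and the IL6R diamonds of both lines lie together at 0.619 and 0.71 TPM.

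Of a list of 55 other genes of the pathway, 48 passed the filter on low counts. They are ligands, receptors, shedding enzymes, kinases and STATs, inhibitors and phosphatases, and genes known to respond to STAT3. Over all genes, edgeR called 0 of the 48 in T24 (11 at an unadjusted p under 0.05, 9 higher and 2 lower), 0 in UMUC3 (20, 7 higher and 13 lower), 0 in both lines together (10, 5 in each direction) and 0 in the difference between the lines (16, 10 higher and 6 lower). Of all genes, 12.2%, 16.9%, 9.55% and 14.3% had an unadjusted p under 0.05 in these comparisons. DESeq2 called 3, 12, 5 and 7 of the 48, beside 4.65%, 8.2%, 4.76% and 5.41% of all genes. The median fitted log2 fold change of the 48 was 0.00 in T24 and -0.10 in UMUC3, beside 0 over all genes in both, and that of the 10 members was 0.48 and 0.04.

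IER3, an immediate early gene that responds to STAT3, had the smallest p of the list in T24. It stood at 38.2 CPM in control T24 cells and 106.9 and 101.0 with circPTK2 knocked down (log2 1.45 ± 0.11, edgeR adjusted p = 0.0968), and at 103.7, 122.7 and 119.5 in UMUC3. ADAM17, a protease that sheds IL6R from the cell surface, stood at 48.8, 82.0 and 79.1 CPM in T24 (0.73 ± 0.10, edgeR adjusted p = 0.154) and at 149.4, 117.1 and 115.2 in UMUC3. Both genes were above the control in the T24 knockdown libraries, and for ADAM17 the UMUC3 libraries lay below theirs. The difference of the effects between the lines was 1.22 ± 0.15 for IER3 and 1.09 ± 0.14 for ADAM17 (edgeR adjusted p = 0.137 and 0.147), so neither passed.

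PTPN11, the phosphatase SHP2 that binds gp130, had the smallest p of the list in UMUC3 and in the difference between the lines. It stood at 214.0 CPM in control UMUC3 cells and 477.2 and 507.3 with circPTK2 knocked down (log2 1.20 ± 0.08, edgeR adjusted p = 0.0607), and at 321.9, 309.3 and 307.8 in T24. Its UMUC3 knockdown libraries were both above the control and its T24 libraries lay within a narrow range, with a difference of -1.26 ± 0.11 (edgeR adjusted p = 0.115). With the newer quasi-likelihood method PTPN11 passed in UMUC3 (edgeR adjusted p = 0.0431). PIM1, a kinase gene induced by STAT3, stood at 25.9, 69.5 and 64.95 CPM in UMUC3 (1.38 ± 0.15, edgeR adjusted p = 0.0769). ICAM1, an adhesion molecule, stood at 0.215 CPM in the UMUC3 control and 0 in both knockdown libraries, too few counts for a fold change to be read.

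In both lines together ZFP36 and BCL3 were among the pathway genes with the smallest p values. ZFP36, which destabilises cytokine mRNAs, stood at 16.7, 27.9 and 24.5 CPM in T24 and 27.8, 49.97 and 48.6 in UMUC3 (0.74 ± 0.15, edgeR adjusted p = 0.278). BCL3, a regulator of NF-kB, stood at 20.4, 27.1 and 28.3 CPM in T24 and 36.9, 65.3 and 59.8 in UMUC3 (0.60 ± 0.15, edgeR adjusted p = 0.359). For both genes all 4 knockdown libraries lay above their controls, and neither passed the threshold.

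**Figure D5:**
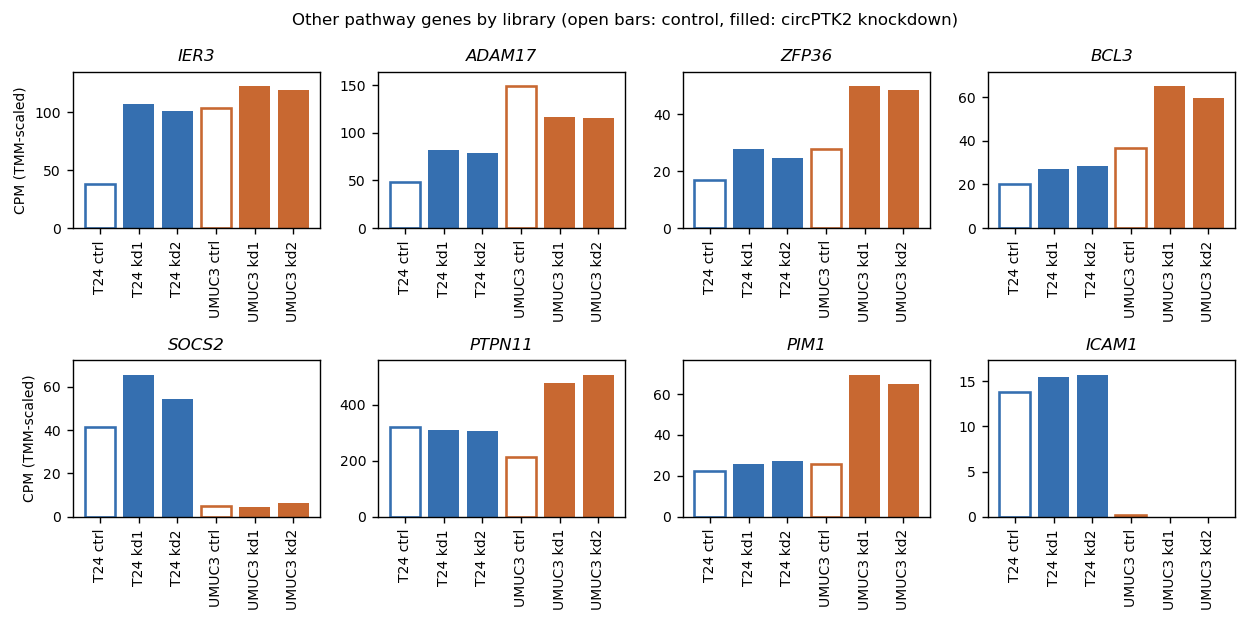
CPM (vertical axis, TMM-scaled, each panel with its own scale from 0) of 8 other pathway genes in the 6 libraries, open bars for the control and filled bars for the 2 knockdown libraries of T24 (blue) and UMUC3 (orange). PTPN11 reaches 477.2 and 507.3 CPM in the UMUC3 knockdown libraries against 214.0 in the control, and ICAM1 is near 0 in UMUC3.

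Between the lines, edgeR called 29 of the 48, 13 higher in T24 and 16 lower, beside 35.3% of all genes. When any 1 knockdown library was left out, 14 to 16 of the 48 passed. SOCS2, a relative of SOCS3, was higher in T24 (41.2 to 65.6 against 4.46 to 6.52 CPM, log2 3.30 ± 0.24, edgeR adjusted p = 0.00116), as was the transcription factor gene CEBPD (10.6 to 22.2 against 1.7 to 2.58 CPM, edgeR adjusted p = 0.00211). The growth regulator MYC was higher too (28.1 to 63.8 against 8.47 to 9.4 CPM, edgeR adjusted p = 0.00536), with the phosphatase gene PTPN6 (5.41 to 6.13 against 0.0713 to 0.412 CPM), ICAM1 (13.8 to 15.7 against 0 to 0.215) and the gp130 ligand gene CTF1 (0.942 to 1.95 against 0 to 0.0716).

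Lower in T24 were CEBPB (70.4 to 87.5 against 166.3 to 206.1 CPM, log2 -1.23 ± 0.09, edgeR adjusted p = 0.00117), a transcription factor of the acute phase, and FOS (1.73 to 4.34 against 75.1 to 110.4 CPM, edgeR adjusted p = 0.00176), a subunit of AP-1. IL27RA, a receptor chain that pairs with gp130, was at 12.8 to 15.2 against 36.6 to 63.6 CPM. The inhibitor SOCS1 was at 6.42 to 7.62 against 16.5 to 26.6 CPM, and BCL3 at 20.4 to 28.3 against 36.9 to 65.3. TWIST1 had 0 counts in T24 and stood at 5.68 to 7.41 CPM in UMUC3. The SOCS inhibitors thus did not share a direction, with SOCS2 higher and SOCS1 and SOCS3 lower in T24.

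Genes with the pattern most like that of 5 members were looked for among 11139 genes of at least 5 CPM, by the root mean square distance over 5 log2 differences (the 4 knockdown libraries from their controls, and control from control). For SOCS3 these were ZFP36L1 (0.074), VAMP1 (0.079) and FOSL2 (0.081), and for OSMR the mitochondrial gene MT-ND2 (0.054), CACUL1 (0.070) and the pseudogene VDAC1P1 (0.085). IL11 was nearest to SAMD4B (0.122), MCM2 (0.127) and LUC7L2 (0.153). For LIF the nearest were ZDHHC12 (0.460), SUOX (0.468) and ZNF219 (0.491), and for IL6 SHISA2 (0.617), SETBP1 (0.635) and GATA3 (0.787). LIF and IL6 were themselves below 5 CPM, so genes at their own level were not searched. For IL6, with 0 counts in UMUC3, the difference of the controls also rests on the small value added before taking logs. The larger distances of LIF and IL6 are therefore not read as a trait of these genes. The 5 differences share the control libraries, so these distances are a description.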

How the data were processed

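RNA-seq was made from total RNA of 6 libraries of 2 cell lines. The deposited table gives raw counts per transcript for each library. HISAT2 2.1.0, StringTie 1.3.3b and FastQC 0.11.5 are named with hg38 in the submitters' processing notes; the counting step, annotation release and strand are not given in the sources used here. Of 136953 transcripts, 121915 had a gene name and were summed to 30717 genes, and 121869 were found in GENCODE 29, 121210 with identical coordinates. The 15038 transcripts without a gene (14.86 to 16.1% of counts) stayed out of library sizes and tests. TPM was computed from the counts with GENCODE 29 lengths.

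The 20721 genes that reached 10 counts in 2 libraries and 30 counts in all were tested with edgeR 4.0.16 (TMM, robust quasi-likelihood fit, Benjamini-Hochberg threshold 0.05) in R 4.3.3: a fit of 4 groups (2 residual degrees of freedom) for each line and their difference, and an additive fit of line and knockdown (3) for both lines and for T24 against UMUC3. DESeq2 1.42.0 and limma 3.58.1 voom were alternatives. The design did not name a version of the quasi-likelihood method. The package's default version is reported, with the robust fit that the design named. It was chosen after 12 versions, which gave 4 different sets of counts, had been run and their calls seen. A run on simulated counts served as a check of the code only. It used the same spread for every gene and large changes in genes with many counts. It therefore does not show how the fits perform on these data. Libraries of a pair differed by more than sampling noise (chi-square per degree of freedom 124.4 and 120.6).

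The members and the lists were chosen with earlier results of these data known. Named beyond the members were the pathway genes that passed over all genes, at most 6 per direction by p, or else the 3 with the smallest p, and the 3 genes nearest in pattern to 5 members. One gene that this rule names is not reported here. Marker lists covered epithelial and urothelial, immune and stromal cells. The stromal list, which included endothelial markers, summed to 38.6 to 44.9 TPM in T24 and 8.84 to 11.3 in UMUC3. Most of the T24 sum was CDH5 (32.4 to 38.4 TPM), which was at 0 in UMUC3. PECAM1, VWF, COL1A2 and PDGFRA were below 1 TPM in every library.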

Additional observations from a re-analysis of the deposited data

Results flagged for a closer look

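For 4 members every T24 knockdown library moved from its control, by CPM, in the direction opposite to every UMUC3 knockdown library. The difference of the knockdown effect between the lines, T24 minus UMUC3, was -1 on the log2 scale for IL11, 1.84 for IL6ST, 0.97 for LIFR and 0.84 for JAK1. None had an edgeR adjusted p under 0.05 in the fit of the difference, where 5 of 20721 genes passed. Over all genes, both knockdown libraries lay above the control for 34.7% in T24 and 35.6% in UMUC3, and below it for 37.3% and 37.1%. The share of all genes that moved opposite ways in the lines was not counted, so nothing is read from the number of members. The T24 shift of IL6ST was small (198.3 and 199.0 CPM against 195.6), as was the UMUC3 shift of IL11 (26.8 and 27.2 CPM against 25.5). By TPM the opposite directions did not hold for IL6ST and LIFR. IL6ST in T24 stood at 54.8 and 55.1 TPM after knockdown against 55.5 in the control, lower as in UMUC3. LIFR in UMUC3 stood at 8.70 and 12.6 TPM against 11.6, on both sides of the control. Groups of 1 or 2 libraries allow no search for single outlying libraries.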

How the results depend on the processing

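With 1 control per line and 2 or 3 residual degrees of freedom, counts of calls followed the method closely. Among the settings added after seeing the data, the newer quasi-likelihood method called 28 genes in T24, 134 in UMUC3 and 12 in the difference between the lines. The default version called 2, 13 and 5, both with the robust fit. The newer method also called 1 pathway gene (PTPN11) in UMUC3, against 0. Without the robust fit the default called 0 genes in UMUC3 and 0 in both lines, and the newer method 19 in T24 and 23 in UMUC3. IL6R passed in UMUC3 in 4 of the 12 versions, PTPN11 in 4 and IL6ST in 10. The 12 gave 4 distinct sets of counts, and those of the newer method recur most often, so they are not 12 separate results. Among the distinct sets, IL6ST failed only in the default version without the robust fit. IL6R and PTPN11 passed only in the newer version with it. DESeq2 called 963 genes in T24, 1700 in UMUC3, 987 in both lines and 1120 in the difference, and 3, 12, 5 and 7 pathway genes. limma voom called 0 in T24, UMUC3 and the difference. With no filter edgeR called 48, 253 and 40 in T24, UMUC3 and the difference, and 1 pathway gene in UMUC3. With 50 counts in 3 libraries it called 19 in T24.

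Knockdown libraries with the same number were not paired by their deviations (correlation -0.001 by titles). The replicate block, with either numbering, gave 0 calls in T24, UMUC3, both lines and the difference, and with the column numbers 18 of the 48 pathway genes between the lines. Leaving out 1 library gave 0 to 18 calls in T24 (18 without the UMUC3 control), 0 to 16 in UMUC3 (16 without the T24 control), 0 to 18 in both lines (16 without the T24 control and 18 without that of UMUC3, which leave the other line to give the value), 0 in the difference, 4628 to 6494 between the lines and 14 to 30 pathway genes there. Causes were not tested. Over 48 member fold changes and their alternatives, 809 of 824 values kept their sign, and 35 of the 48 kept it in every alternative. In 105 values the size moved by at least the spread of the paired knockdown libraries. The alternatives are refits of the same libraries, and several could hardly move a value. The log2 fold change of IL11 in T24 was -0.917 in the main fit, with either replicate block and without any 1 UMUC3 library. No fit within a line could leave out its only control. The counts of kept signs are therefore no measure of stability. Counting the most abundant transcript alone moved IL6ST in UMUC3 to -5.00, IL6R there to 3.50 and IL6 in T24 from 1.77 to 9.04, the last against a control with 0 counts on that transcript, so that its size depends on the prior count.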
